A study of Rattus norvegicus with 18 samples.

Results

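Annexins and S100 proteins were followed as transcripts in whole liver of the BarNa rat, a model of non-alcoholic steatohepatitis (NASH). The genes were 10, chosen by symbol alone: the annexins Anxa1, Anxa2, Anxa3 and Anxa5, and the S100 genes S100a4, S100a6, S100a8, S100a9, S100a10 and S100a11. All 10 were found among the 32623 genes of each table. A filter on low counts kept 8 of them among the 12904 genes tested. S100a8 and S100a11 did not pass it, and S100a9 passed although few rats lay above its cut.

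The animals were 18 male Wistar rats, with 6 livers in each group. Control rats received standard chow and normal drinking water for 12 weeks. NASH rats had 10 weeks of treatment, in which 6 weeks of inhaled carbon tetrachloride (CCl4) with oral phenobarbital were followed by 4 weeks of a high-fat, high-cholesterol diet (HFCD). NASH-CH rats, the group with established cirrhosis in the study's terms, had 24 weeks of CCl4 and phenobarbital with the diet given in the last 16 weeks. The series' design text gives the same totals without this order of agents, which comes from the study's methods. Every treated rat thus received phenobarbital, and no control did. By that order, NASH rats had neither CCl4 nor phenobarbital in their last 4 weeks, and NASH-CH rats had both to the end. Duration of housing therefore differed between all groups, and time, diet and toxin cannot be told apart. The liver was sampled whole, so that fewer cells of a type and less RNA per cell cannot be told apart. Summed counts per liver were 19498534 to 27174015 in controls, 20827770 to 29491947 in NASH and 44680344 to 60117822 in NASH-CH, so low genes were measured more precisely in NASH-CH. Levels are CPM, the counts scaled to a common library total, and are compared between rats for 1 gene, never between genes, since no transcript length was used.

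Annexins are cytosolic proteins that bind negatively charged phospholipids when calcium rises, and act in membrane repair, vesicle traffic and the control of inflammation. S100 proteins are small calcium sensors with EF-hand domains, and several dock onto a particular annexin. S100a10 pairs with Anxa2 in a heterotetramer, S100a11 binds Anxa1, and S100a8 with S100a9 forms calprotectin, an abundant protein of neutrophils. In normal liver, hepatocytes carry little Anxa1 or Anxa2, and bile duct, immune and mesenchymal cells carry more.

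The start regions of Anxa1, Anxa2 and S100a6 are shown because Anxa1 and S100a6 were the members past the test between NASH-CH and control, and Anxa2 reached the largest fold over the control mean in a single liver. Each run is the 250 bases before the RefSeq start of the gene in the GRCr8 build, 5′ to 3′ on the gene's strand, with motif matches in capitals. The motifs were TATAAA, the letters of the TATA box that positions the polymerase, then TGANTCA, the letters bound by AP-1 factors such as Fos and Jun, and finally GGGCGG, the box bound by Sp1.
Anxa1 (chr1:227303733-227303982, minus strand): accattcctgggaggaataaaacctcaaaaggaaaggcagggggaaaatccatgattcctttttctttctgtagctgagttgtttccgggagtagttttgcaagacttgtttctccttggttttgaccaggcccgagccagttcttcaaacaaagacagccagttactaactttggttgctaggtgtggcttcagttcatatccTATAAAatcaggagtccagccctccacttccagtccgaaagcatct
Anxa2 (chr8:78986002-78986251, plus strand): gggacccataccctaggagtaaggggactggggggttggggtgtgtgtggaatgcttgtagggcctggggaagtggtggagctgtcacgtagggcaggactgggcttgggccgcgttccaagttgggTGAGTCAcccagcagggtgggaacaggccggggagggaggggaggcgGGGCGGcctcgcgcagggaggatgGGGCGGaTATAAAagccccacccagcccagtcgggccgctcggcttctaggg
S100a6 (chr2:178398287-178398536, plus strand): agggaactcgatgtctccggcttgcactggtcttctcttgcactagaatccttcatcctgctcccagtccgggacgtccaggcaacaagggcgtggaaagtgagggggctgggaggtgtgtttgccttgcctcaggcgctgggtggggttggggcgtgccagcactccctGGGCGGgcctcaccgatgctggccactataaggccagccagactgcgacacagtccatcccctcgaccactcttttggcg
Both strands were searched for each motif. The RefSeq start regions used here covered 8 of the 10 members, all but S100a8 and S100a10. TATAAA lay in 4 of the 8, at 46 bases upstream in Anxa1, 45 in Anxa2, 31 in S100a4 and 42 in S100a9, beside 12.9% of 33469 start regions. TGANTCA matched in 1 of the 8, as TGAGTCA at 123 bases upstream in Anxa2, beside 6.34% of start regions. GGGCGG matched in 5 of the 8, beside 30.5%. CCAAT was found in 0 of the 8, beside 34% of start regions. These matches describe letters in the window and not binding. On the RefSeq map, S100a4, S100a5 and S100a6 followed each other with 0 genes between neighbours, as did S100a6, S100a7a, S100a8 and S100a9.

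**Figure D1:**
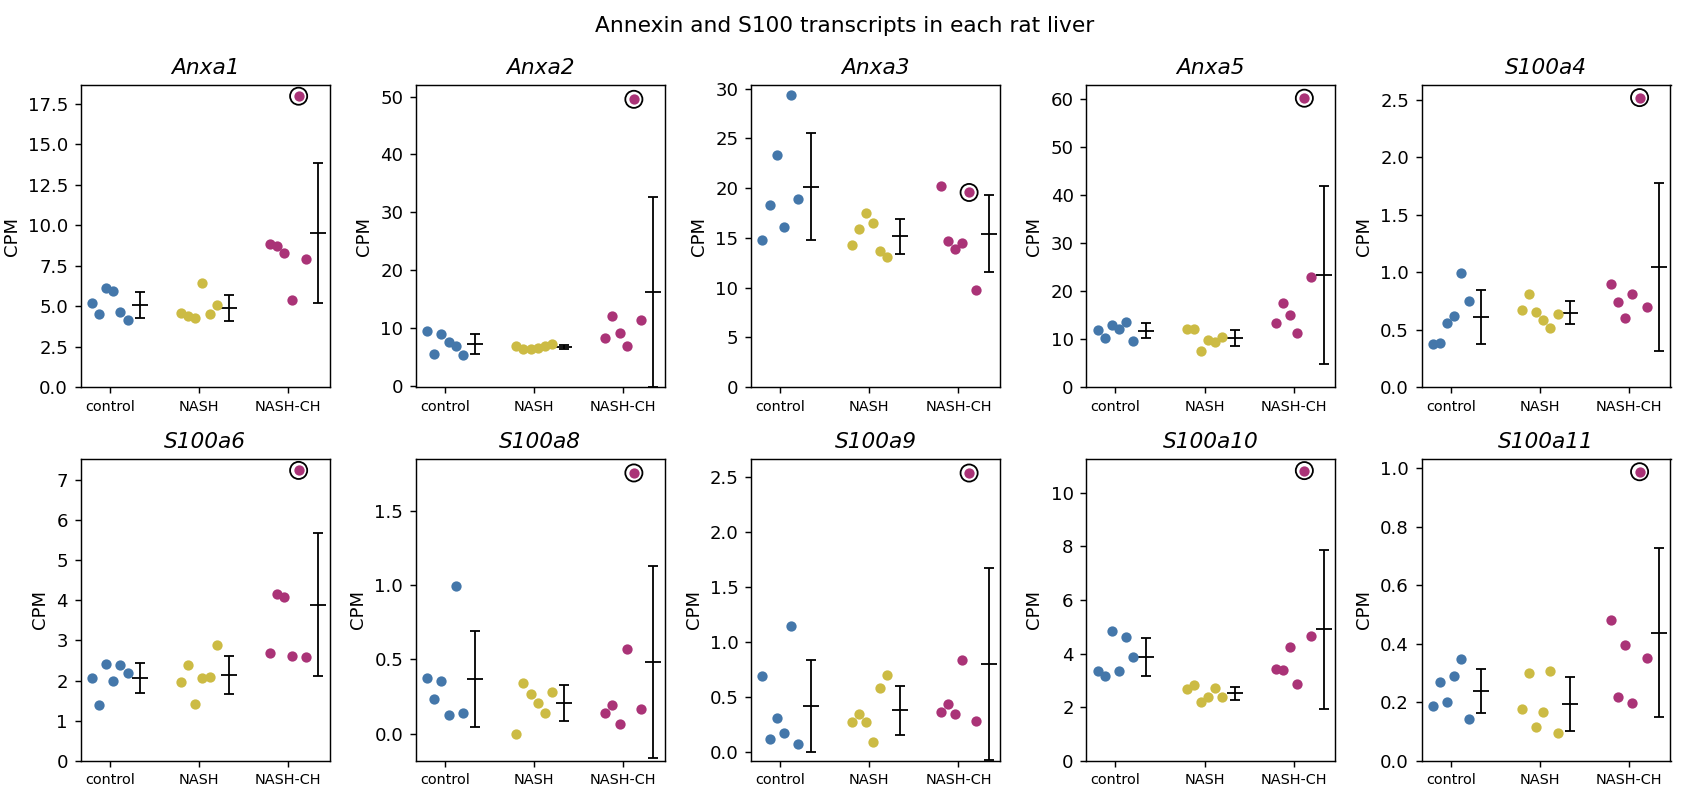
CPM of each of the 10 genes (vertical axes, from 0) in each rat, by group on the horizontal axis, with whiskers for the mean ± SD of 6 rats and NASH-CH rat 5 ringed. Rat 5 was the highest NASH-CH liver in 9 of the 10 genes and reached 49.5 CPM in Anxa2.

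One liver stood apart. NASH-CH rat 5 held the highest level of all 18 rats in 9 of 10 members, the exception being Anxa3, where it ranked 4. Over all 12904 genes tested it was the highest NASH-CH rat in 25.4%, and the other NASH-CH rats were highest in 10.9 to 20.9%. Its levels were 6.83-fold over the control mean in Anxa2, 5.13-fold in Anxa5, 3.53-fold in Anxa1 and 3.50-fold in S100a6. The NASH-CH comparisons of the 8 tested members are therefore given with and without it. Rat 5 also had the highest summed markers of several other cells, which are given after the members.

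Anxa1 and S100a6 were higher in NASH-CH than in control, and Anxa1 also than in NASH. In the fit of all 18 rats by limma-voom, with Benjamini-Hochberg adjustment over all genes tested, 0 of 8 members passed in NASH against control, beside 3.12% of all genes. Without adjustment, 1 member (Anxa3) had a p under 0.05 in that comparison, and edgeR and DESeq2 each also called 0 after adjustment. In NASH-CH against control, 2 of 8 members passed, both higher, beside 17.0% of all genes in either direction and 8.38% higher. In NASH-CH against NASH, 1 of 8 passed, higher, beside 4.20% in either direction and 1.81% higher. The median log2 fold change of the 8 members was -0.05 in NASH against control, 0.78 in NASH-CH against control and 0.84 in NASH-CH against NASH, with medians over all genes of 0.0072, 0.0127 and 0.00684. The 3 comparisons share groups and are not independent. Scaling by library size alone, in place of TMM, moved the median of all genes to 0.229, 0.268 and 0.0401, and the share of higher genes among those past the test from 50.6%, 49.4% and 43.2% to 90.8%, 85% and 32.4%, so the fold changes here are relative to TMM scaling. Without NASH-CH rat 5 the members past the test were 1 lower, 2 higher and 3 higher in the 3 comparisons, beside 2.77% lower, 8.26% higher and 1.61% higher of all genes, and the medians of the members were -0.05, 0.42 and 0.51.

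Anxa1, a glucocorticoid-induced inhibitor of inflammation that acts through formyl peptide receptors, had a low and narrow level in control rats. It was 4.12 CPM at the lowest, 4.92 at the median and 6.11 at the highest in control. In NASH it was 4.24, 4.53 and 6.46, and in NASH-CH 5.39, 8.49 and 17.96. NASH and control rats overlapped, and 5 of 6 NASH-CH rats lay above every control and every NASH rat. The log2 fold change was 0.83 (SE 0.228, 95% interval 0.356 to 1.31, adjusted p = 0.0181 by limma) in NASH-CH against control. Against NASH it was 0.88 (SE 0.223, 95% interval 0.418 to 1.35, adjusted p = 0.029 by limma). Without rat 5 these were 0.62 (adjusted p = 0.00794) and 0.66 (adjusted p = 0.0112). With the groups of each comparison fitted alone neither passed (adjusted p = 0.0569 and 0.0985), nor did the comparison with NASH under library size only (adjusted p = 0.067) or without NASH rat 1, 2, 3, 5 or 6 or NASH-CH rat 2 (adjusted p of up to 0.0737). NASH against control gave -0.05 (SE 0.254, adjusted p = 0.931), with the sign turned under library size only (0.16).

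Anxa2, which bundles actin at membranes and binds plasminogen and its activator on cell surfaces, spread more widely. Control rats had 5.27, 7.19 and 9.47 CPM at the lowest, median and highest, NASH rats 6.25, 6.68 and 7.17, and NASH-CH rats 6.84, 10.3 and 49.5. The NASH rats sat inside the control range, 3 of 6 NASH-CH rats lay above every control, and the highest was rat 5. Without rat 5 the NASH-CH mean was 9.53 ± 2.17 CPM (SD, n = 5), against 7.25 ± 1.72 in controls (SD, n = 6). The log2 fold change was 0.83 (SE 0.365, adjusted p = 0.127 by limma) against control and 0.89 (SE 0.359, adjusted p = 0.192) against NASH, neither of which passed. Without rat 5 they were 0.42 (adjusted p = 0.0743) and 0.48 (adjusted p = 0.105). By edgeR Anxa2 passed against control, and by DESeq2 it passed against both groups.

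Anxa5, which binds phosphatidylserine on dying cells, had a like order. Its lowest, median and highest levels were 9.65, 12.03 and 13.4 CPM in controls. They were 7.56, 10.1 and 12.1 CPM in NASH rats and 11.4, 16.2 and 60.1 CPM in the NASH-CH group. All but 1 NASH-CH rat lay above every NASH rat, and 4 of 6 above every control. With all rats the log2 fold change was 0.73 (SE 0.29, adjusted p = 0.0918 by limma) against control and 0.93 (SE 0.289, adjusted p = 0.0789) against NASH. Leaving out rat 5 gave 0.42 (adjusted p = 0.0809) and 0.62 (SE 0.16, adjusted p = 0.036), so that of these only the comparison with NASH passed. Without NASH-CH rat 4 the comparison with control passed (adjusted p = 0.0409), and edgeR and DESeq2 called Anxa5 in both. The comparison with control also passed under library size only (adjusted p = 0.0402), and the comparison with NASH without NASH-CH rat 4 (adjusted p = 0.0332) or with no filter (adjusted p = 0.0364). With no filter the unadjusted p by limma moved little (0.00399, beside 0.00456), while the genes past the test went from 542 to 2649.

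Anxa3, a phospholipid-binding annexin, had lower means in both treated groups. Control rats had 14.8, 18.6 and 29.4 CPM, NASH rats 13.1, 15.1 and 17.5, and NASH-CH rats 9.74, 14.6 and 20.2. 4 of 6 NASH-CH and 3 of 6 NASH rats lay below every control. The log2 fold changes of -0.38 (SE 0.176, adjusted p = 0.217 by limma) in NASH and -0.39 (SE 0.173, adjusted p = 0.131) in NASH-CH did not pass. The difference between NASH-CH and NASH was -0.01 (SE 0.174), and its sign depended on the method. Without rat 5 the values for NASH-CH were -0.47 (adjusted p = 0.075) against control and -0.09 (adjusted p = 0.862) against NASH.

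**Figure D2:**
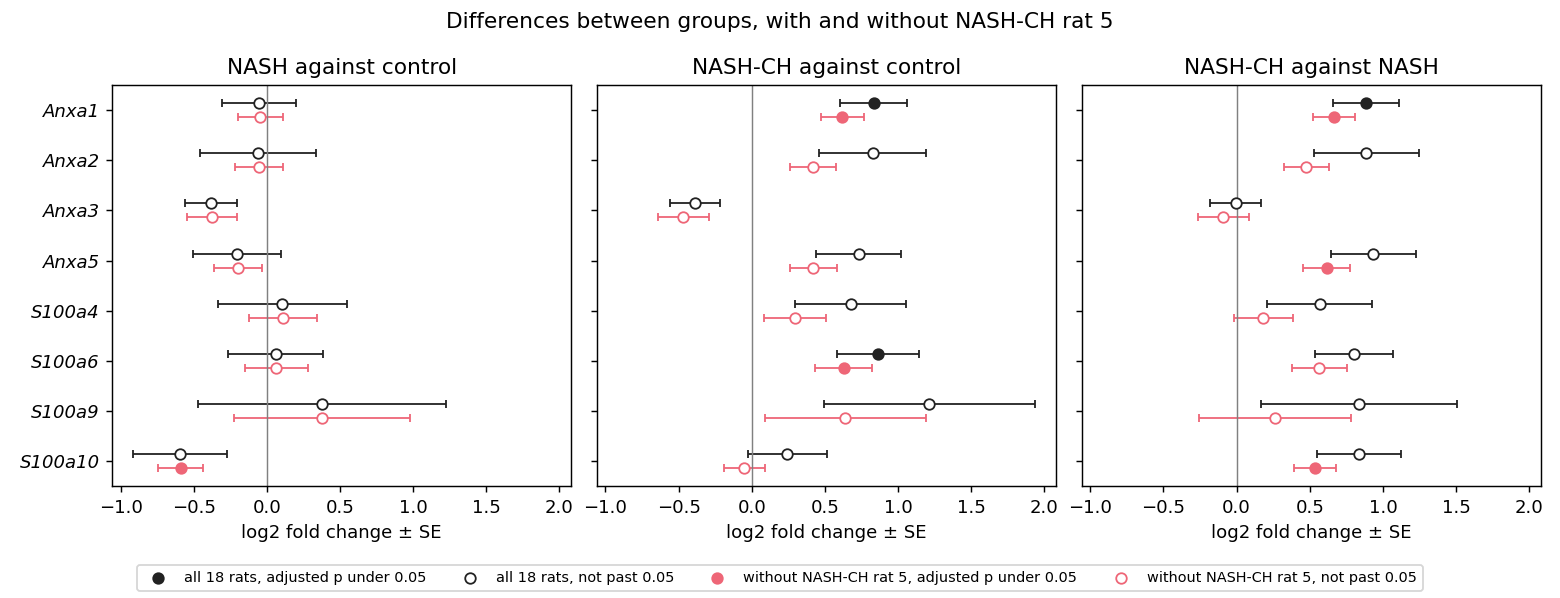
Log2 fold change ± SE (horizontal axis) of the 8 tested genes in each of the 3 comparisons, with all rats and without NASH-CH rat 5, and filled points past an adjusted p of 0.05. Anxa1 is filled in both comparisons with NASH-CH, at 0.83 and 0.88 with all rats, and S100a10 is filled below 0 in NASH against control only without rat 5.

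Among the S100 genes, S100a6, a cytoplasmic calcium sensor of dividing cells and fibroblasts, was higher in every NASH-CH rat than in any control. Control rats had 1.39, 2.12 and 2.42 CPM, NASH rats 1.43, 2.07 and 2.88, and NASH-CH rats 2.60, 3.38 and 7.23. The absence of overlap with control, in the higher direction, was shared by 3.64% of all genes tested. The log2 fold change was 0.86 (SE 0.28, 95% interval 0.275 to 1.45, adjusted p = 0.0413 by limma) with all rats and 0.63 (SE 0.195, adjusted p = 0.0338) without rat 5. Against NASH it was 0.80 (SE 0.267, adjusted p = 0.105), or 0.57 (adjusted p = 0.11) without rat 5, and 3 of 6 NASH-CH rats lay above every NASH rat. Leaving out a rat ended the call against control in 8 of 12 fits (any control rat, or NASH-CH rats 2 or 3), with an adjusted p of up to 0.0934, and fitting the 2 groups alone did so too (adjusted p = 0.0922). By edgeR and DESeq2 S100a6 passed against both groups.

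S100a10, the partner of Anxa2, was lower in NASH than in control in every rat after TMM scaling. Over the plain library total, NASH rat 2 (66 counts of 23045866) did not lie below control rat 1 (54 of 19498534). Control rats had 3.16, 3.62 and 4.85 CPM, NASH rats 2.20, 2.53 and 2.83, and NASH-CH rats 2.88, 3.83 and 10.8. The NASH rats lay below every control, an absence of overlap shared in that direction by 1.39% of all genes tested, and all 6 NASH-CH rats lay above every NASH rat, which was shared by 1.36% in that direction. In the fit of 18 rats the log2 fold change was -0.59 (SE 0.32, 95% interval -1.26 to 0.0775, adjusted p = 0.293 by limma) and did not pass. Without rat 5, which takes no part in this contrast but enters the shared spread, the fold change was the same and the SE 0.153 (adjusted p = 0.0338), and with the 2 groups alone it also passed (adjusted p = 0.0263). NASH-CH against NASH gave 0.84 (SE 0.286, adjusted p = 0.116) with all rats and 0.54 (SE 0.145, adjusted p = 0.0449) without rat 5. Against control, NASH-CH gave 0.24 (SE 0.27, adjusted p = 0.567) with all rats and -0.05 (adjusted p = 0.839) without rat 5.

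The ratio of S100a10 to Anxa2 counts within a library cancels the library's scaling. Control rats had a log2 ratio of -0.89 ± 0.38, NASH rats -1.39 ± 0.15 and NASH-CH rats -1.49 ± 0.42 (SD, n = 6 each). The differences from control were -0.51 in NASH (p = 0.0173) and -0.60 in NASH-CH (p = 0.026), by exact two-sided permutation tests, with adjusted p = 0.0519 for both over 6 tests. Neither passed. Of 12 fits that each left out 1 rat, only that without control rat 1 passed (adjusted p = 0.00649 and 0.013, exact permutation test). The adjusted p in the others reached 0.0974 and 0.117. The exact test between NASH-CH and NASH gave -0.09 (p = 0.643). The smallest p that 6 against 6 allows is 0.00216.

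Calprotectin transcripts were near the counting limit. S100a8 had counts of 3 to 20 in control rats, 0 to 9 in NASH rats and 4 to 135 in NASH-CH rats. NASH rat 1 had 0 counts, which allows a level of up to 0.134 CPM, for counting error only. For S100a9, control rats had 0.0717, 0.234 and 1.14 CPM, NASH rats 0.0839, 0.306 and 0.695, and NASH-CH rats 0.276, 0.398 and 2.53. In both genes the highest liver of all was NASH-CH rat 5, at 1.75 CPM for S100a8 and 2.53 CPM for S100a9, and control rat 5 was the highest control at 0.992 and 1.14 CPM. S100a9 differed on the log2 scale by 0.38 (SE 0.846, adjusted p = 0.838 by limma) in NASH and 1.22 (SE 0.72, adjusted p = 0.259) in NASH-CH, both against control, and neither passed. NASH-CH against NASH gave 0.84 (adjusted p = 0.565). Without rat 5 the NASH-CH values for S100a9 were 0.64 (adjusted p = 0.452) against control and 0.26 (adjusted p = 0.867) against NASH. S100a8 entered only the fit with no filter, where no comparison passed (adjusted p = 0.725, 0.988 and 0.592 by limma). For the log2 ratio of S100a9 to S100a8 counts, control rats had -0.09 ± 0.69, NASH rats 0.96 ± 1.72 and NASH-CH rats 1.06 ± 0.63 (SD, n = 6 each). The value of 3.70 in NASH rat 1 rests on 0 counts of S100a8 and the offset of 0.5 counts. NASH-CH differed from control by 1.16 (exact permutation p = 0.0108, adjusted p = 0.0519), which did not pass after adjustment, and by 0.80 with an offset of 5 counts. Of 12 fits that each left out 1 rat, only that without control rat 1 passed (adjusted p = 0.00649, exact permutation test). The adjusted p in the others reached 0.0974. NASH differed from control by 1.06 (exact permutation p = 0.208), by 0.49 with an offset of 5 counts and by 0.51 without NASH rat 1. NASH-CH differed from NASH by 0.10 (exact permutation p = 0.894), by 0.32 with that offset and by 0.65 without NASH rat 1.

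**Figure D3:**
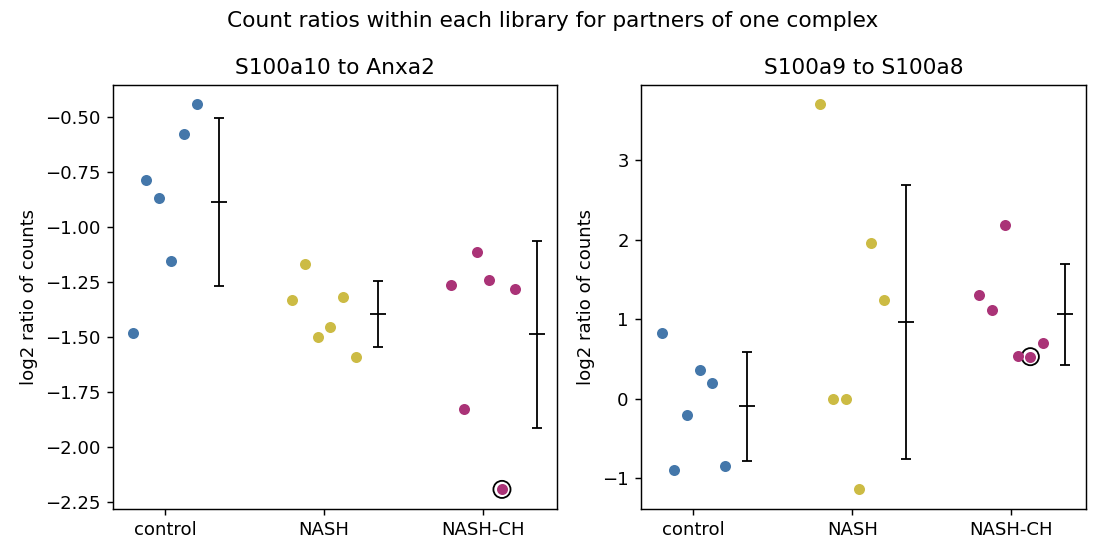
Log2 ratio of counts within each library (vertical axis) for S100a10 to Anxa2 and S100a9 to S100a8, by group, with 1 point a rat, whiskers for the mean ± SD of 6 rats and NASH-CH rat 5 ringed. The control means are -0.89 for S100a10 to Anxa2 and -0.09 for S100a9 to S100a8.

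S100a4, known from fibroblasts and macrophages, and S100a11, the partner of Anxa1, were low. For S100a4, control rats had 0.374, 0.588 and 0.992 CPM, NASH rats 0.514, 0.644 and 0.814, and NASH-CH rats 0.602, 0.774 and 2.52, and apart from rat 5 no NASH-CH rat lay above every control. Its log2 fold change of 0.68 (SE 0.382, adjusted p = 0.237 by limma) against control did not pass, and was 0.30 (adjusted p = 0.366) without rat 5. Against NASH it was 0.57 (adjusted p = 0.436) with all rats and 0.18 (adjusted p = 0.73) without rat 5. For S100a11, control rats had 0.143, 0.236 and 0.347 CPM, NASH rats 0.0948, 0.173 and 0.308, and NASH-CH rats 0.197, 0.373 and 0.987, with 4 of 6 NASH-CH rats above every rat of the other groups. In the fit with no filter it gave 0.72 (SE 0.411, adjusted p = 0.212 by limma) against control and 1.07 (SE 0.418, adjusted p = 0.101) against NASH. Without rat 5 the NASH-CH mean of S100a11 was 0.328 ± 0.120 CPM (SD, n = 5).

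Of the 8 other annexins found, 6 were tested and 1 passed, in a comparison where 17.0% of all genes passed. Anxa4, an annexin of epithelia, rose in NASH-CH against control by 0.52 on the log2 scale (SE 0.133, adjusted p = 0.0133 by limma), and by 0.39 without rat 5 (adjusted p = 0.0102). Its levels were 18.1, 19.4 and 21.2 CPM in control and 20.3, 26.5 and 44.8 in NASH-CH, with the highest again in rat 5. Anxa13, an annexin of gut epithelium, passed only without rat 5 and only against NASH (log2 fold change 1.045, adjusted p = 0.0469 by limma). Of 10 other S100 genes found, S100a13 and S100a16 were tested and neither passed in any comparison. Of 24 receptors and binding partners found, 13 were tested, and 1, 3 and 1 rose in NASH against control, NASH-CH against control and NASH-CH against NASH, with 0 lower in each. Of all 12904 genes tested, 204, 1082 and 234 rose in these comparisons.

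The partner that passed in all 3 comparisons was Ahnak, a giant scaffold protein that the S100a10 and Anxa2 complex binds at the plasma membrane. Control rats had 38.4 to 51.8 CPM, NASH rats 49.9 to 78.5 and NASH-CH rats 99.4 to 198, and the NASH-CH group lay above both others in every rat. The log2 fold changes were 0.60 (adjusted p = 0.0249 by limma), 1.52 (adjusted p = 1.29e-06) and 0.92 (adjusted p = 0.00083) in the same order, and without rat 5 they were 0.61, 1.40 and 0.79, all past the test. Ahnak2 (2.73, adjusted p = 0.0462 by limma) and Cd36, a fatty acid and scavenger receptor to which calprotectin binds (1.04, adjusted p = 0.0271), were higher in NASH-CH than in control. Without rat 5, Ahnak2 no longer passed (adjusted p = 0.0557). The Anxa1 receptor gene Fpr2 was at 0 in every control, with at most 3 counts in a NASH rat and 2 in a NASH-CH rat, and was not tested. Ager and Tlr4, receptors of calprotectin, had medians of 0.113 and 1.98 CPM in control and 0.167 and 2.10 in NASH-CH. Tlr4 did not pass, and Ager was not tested.

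**Figure D4:**
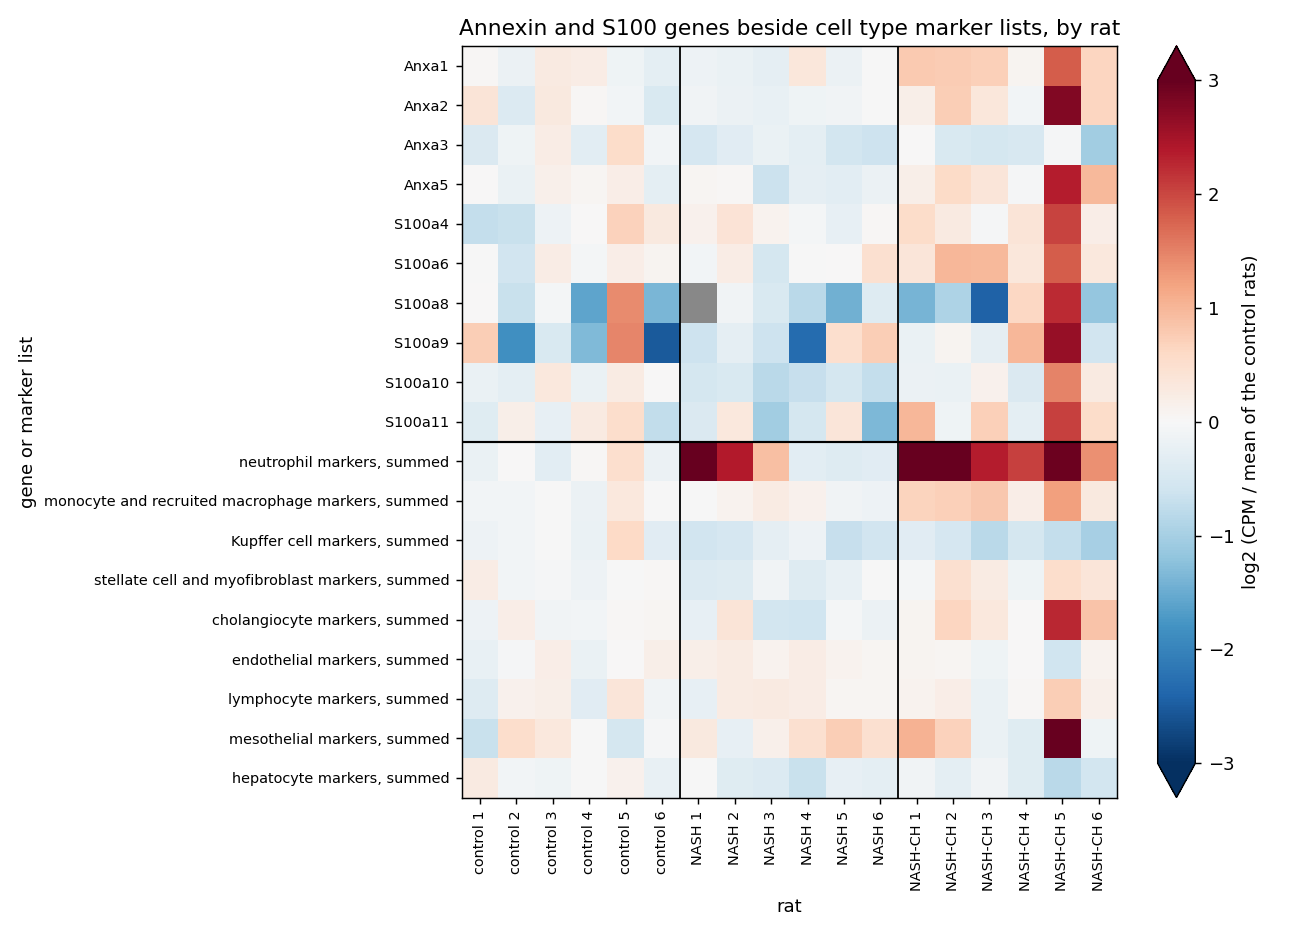
Log2 of CPM over the control mean (colour, clipped at -3 and 3) for the 10 genes and for the summed CPM of each cell type marker list (vertical axis) in each of 18 rats (horizontal axis), with a level of 0 in grey. NASH-CH rat 5 is high in 9 of the 10 genes together with the cholangiocyte, mesothelial, monocyte and macrophage, stellate and lymphocyte sums.

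Markers of other cells moved beside the members. For the counts of markers past the test below, 1082 of all 12904 genes tested rose and 1110 fell in NASH-CH against control. Without rat 5, 1070 of 12948 rose and 1112 fell in that comparison. Summed over their lists, rat 5 ranked 1 of 18 for the monocyte and recruited macrophage, stellate cell, cholangiocyte, lymphocyte and mesothelial markers, and 18 of 18 for endothelial and hepatocyte markers. Cholangiocyte markers summed to 13.1 to 16.8 CPM in control rats, 9.65 to 18.9 in NASH rats and 14.8 to 69.7 in NASH-CH rats, the highest in rat 5. Mesothelial markers summed to 0.997 to 2.28 CPM in control rats, 1.33 to 2.64 in NASH rats and 1.22 to 14.6 in NASH-CH rats, with Msln alone at 13.4 CPM in rat 5. Wt1 (0.701 against 0.0963 CPM) and Lrrn4 (0.299 against 0.216 CPM) were also higher in rat 5 than the control mean, but Upk3b (0.169 against 0.230 CPM) and Upk1b (0.0649 against 0.129 CPM) were lower, so the rank of the mesothelial sum rests on Msln. Monocyte and macrophage markers summed to 121 to 171, 123 to 163 and 157 to 320 CPM in the same order, and of 11 tested 4 rose and 1 fell in NASH-CH against control, and 4 and 2 without rat 5. Their part in the member levels was not tested. Stellate markers summed to 308 to 400, 255 to 340 and 312 to 489 CPM, and 4 of 12 tested rose in NASH-CH against control while 1 fell. Of the 8 Kupffer cell markers tested, 7 fell in NASH-CH against control, and 4 without rat 5. Of the cholangiocyte (7 tested), lymphocyte (5 tested) and mesothelial (1 tested) markers 0 passed in any comparison by limma. At an unadjusted p under 0.05 there were 2 cholangiocyte markers in NASH-CH against control, 4 in NASH-CH against NASH and 0 in the other comparisons of these lists, and without rat 5 2 cholangiocyte markers passed as higher in NASH-CH against NASH. Of 10 endothelial markers tested, Vwf and Cd34 rose in NASH-CH against control, Vwf alone without rat 5, and Stab1 fell in NASH-CH against NASH, but not past the test without rat 5. Without rat 5, Stab1 also passed as higher in NASH against control. Endothelial sums were 289 to 391 CPM in control rats, 350 to 398 in NASH rats and 225 to 365 in NASH-CH rats, the lowest in rat 5. Hepatocyte markers were abundant in every rat, but their sum had a median of 154900 CPM in control rats, 127800 in the NASH group and 127700 in the NASH-CH group, with the lowest, 91220, in rat 5. Of 11 tested, 1 rose (Cyp2e1) and 3 fell (Alb, Ttr and Apoa1) in NASH-CH against control, and 1 rose (Cyp2e1) and 1 fell (Apoa1) in NASH against control. Without rat 5 these counts were 2 and 3 in NASH-CH and 1 and 2 in NASH. The part of these sums in the member levels was not tested.

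For the calprotectin genes, the neutrophil list is the closest. Of its 18 genes 2 passed the filter, and Lcn2, which injured hepatocytes also make, rose in NASH-CH against control (log2 fold change 4.66, adjusted p = 0.0195 by limma). The sum of the other 17 was 4.27 to 7.44 CPM in control rats, 3.23 to 4.36 in NASH rats and 4.75 to 14.9 in NASH-CH rats, with the highest control in rat 5 and the highest of all in NASH-CH rat 5. Most of this sum was Ncf1 in every rat. Ncf1 alone was 3.10 to 5.45 CPM in control rats, 2.44 to 2.97 in NASH rats and 3.80 to 9.61 in NASH-CH rats. Its highest values were in control rat 5 and NASH-CH rat 5, the same rats as for the sum. The granule gene Mpo had 36 counts in NASH-CH rat 5 and 0 or 1 in every other rat. Elane, Prtn3 and Ctsg had 15, 6 and 18 counts in NASH-CH rat 5, and also 0 or 1 in every other rat. In CPM, Csf3r, Padi4, Mmp9 and Cxcr1 were not highest in that rat, and Ltf was at 0 throughout. The part of these markers in the S100a8 and S100a9 levels was not tested.

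The genes whose levels followed the members most closely were read from Pearson's r of log2 CPM over 18 rats, given as a description since the rats share groups, libraries and depth. Anxa2 followed Anxa5 (r = 0.948), and both followed Tagln2, an actin-binding gene (r = 0.923 and 0.938). Without rat 5 these fell to 0.814, 0.697 and 0.789. Mvp was also close to Anxa2 and Anxa5 (r = 0.931 and 0.921), at 0.673 and 0.709 without rat 5. Anxa1 was nearest to Emp1, Tagln2 and Oxct1 (0.928, 0.921 and 0.909), at 0.877, 0.833 and 0.819 without rat 5. S100a6 was nearest to Oxct1 (r = 0.932), then to the matrix genes Mgp and Dcn (both r = 0.912), at 0.871, 0.864 and 0.838 without rat 5. S100a4 was nearest to Ppt1 (0.87, and 0.739 without) and S100a9 to Ubxn8 (0.814, and 0.76 without). S100a10 was nearest to Tax1bp3 (0.918, and 0.795 without). Anxa3 was nearest to Ptgs1, Adgre4 and Cd38 (0.878, 0.876 and 0.876), and rat 5 made little difference there (0.874, 0.873 and 0.877). Over the 28 pairs of tested members the median r was 0.66 with all rats and 0.26 without rat 5. Anxa2 and S100a10 gave 0.816 with all rats and 0.456 without.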

How the data were processed

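Processed tables of 18 rat livers (6 per group) were used. Per the labels and the study's methods, the authors trimmed reads, aligned them with STAR to Rnor_6.0 with Ensembl release 95 annotation, and estimated gene levels with RSEM. The deposited values are expected counts, which need not be whole, and tool versions are not given in the sources used here. They were rounded to whole numbers. Of 180 member values, 172 were whole within 0.001, so few reads were divided between genes. Counting strand was not stated.

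Groups came from the labels. Genes were filtered with filterByExpr (minimum count 10), scaled by TMM, and fitted in one limma-voom model of 18 rats (R 4.3.3, limma 3.58.1, edgeR 4.0.16), with Benjamini-Hochberg adjustment at 0.05. TMM and limma-voom follow the study's methods, and the low-count filter and the single model of all groups were choices made here. CPM is the rounded count over the scaled library size. Ratios used an offset of 0.5 counts. Named genes were the 10 members, with some of the list genes and some of those of closest pattern. Other list genes that passed are given as counts only. The step was tested on simulated data. Alternatives included DESeq2 1.42.0. The members, lists and tests were chosen with earlier results of these data known. Depth limits the low genes. The 95% intervals come from the fitted SE, which includes the spread between rats, and the floors cover counting error only. Start regions came from RefSeq (GRCr8), a later build than that of the tables.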

Additional observations from a re-analysis of the deposited data

Results flagged for a closer look

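Within groups of 6 rats, 72 sets of values were examined for a rat far from the others by Dixon's test, which flags about 1 in 20 by chance, and 8 were found, of which 4 were NASH-CH rat 5. Rat 5 was far above the other NASH-CH rats for Anxa2 (49.5 CPM), S100a4 (2.52 CPM) and S100a10 (10.8 CPM), and far below them for the summed endothelial markers (225 CPM). Control rat 2 was low for S100a6 (1.39 CPM), and NASH rat 1 for S100a8 (0 CPM). Control rat 5 was high for the summed monocyte and recruited macrophage markers (171 CPM) and the summed Kupffer cell markers (576 CPM). The effect on Anxa1 differed between NASH-CH and NASH, by 0.88 on the log2 scale in the fit of all rats. No cause was tested for any of these.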

How the results depend on the processing

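Member values were recomputed under alternatives. Apart from leaving out a rat, 199 of 233 kept direction and side of the threshold, 4 lost a call, 16 gained one and 14 reversed. Of 288 that left out a rat, 257 kept both, 14 lost a call, 4 gained one and 13 reversed. The cause of the changes was not tested.

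Counts of all genes past the test in NASH against control (403) became 652 with edgeR, 1228 with DESeq2, 865 with library size only, 268 with no filter, 644 with the 2 groups alone, 1509 with quality weights and 721 without NASH-CH rat 5. In NASH-CH against control (2192) they became 5495 with no filter and 1408 alone, and in NASH-CH against NASH (542) 949 with DESeq2, 2649 with no filter and 349 alone. Members past the test in NASH against control became 1 (S100a10) with the 2 groups alone and 1 (S100a10) without NASH-CH rat 5, an alternative added after seeing the data. In NASH-CH against control they became 4 with edgeR and 4 with DESeq2 (Anxa1, Anxa2, Anxa5 and S100a6) and 0 alone. In NASH-CH against NASH they became 4 with edgeR (Anxa1, Anxa5, S100a6 and S100a10), 5 with DESeq2 (Anxa2 as well), 0 with library size only, 2 with no filter (Anxa1 and Anxa5), 0 alone and 2 with the replicate block (Anxa1 and S100a10).

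Leaving out 1 rat gave 0 to 0, 1 to 3 and 0 to 3 members past the test and 128 to 982, 1519 to 2409 and 346 to 591 genes. The Anxa1 call held in 12 of 12 such fits against control (adjusted p 0.00391 to 0.0428 by limma) and in 6 of 12 against NASH (up to 0.0737), where it was lost without NASH rat 1, 2, 3, 5 or 6 or NASH-CH rat 2. The Anxa1 call against control was lost with the 2 groups alone (adjusted p = 0.0569). The difference in the log2 ratio of S100a9 to S100a8 ranged from 0.51 to 1.48, 0.93 to 1.34 and -0.32 to 0.65, and that of S100a10 to Anxa2 from -0.63 to -0.42, -0.72 to -0.46 and -0.17 to 0.048. Without control rat 1 the differences with an adjusted p of 0.0519 passed (0.00649, 0.00649 and 0.013, exact permutation test). Each passed in only 1 of 12 such fits, and the adjusted p in the others reached 0.0974, 0.0974 and 0.117. With medians, the S100a10 to Anxa2 difference between NASH-CH and NASH was 0.12.

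Reversed log2 fold changes, none past the test, were S100a9 in NASH against control (-0.046 with edgeR, -0.11 with DESeq2, -0.053 with the replicate block), S100a4 there (-0.022 with the block), Anxa1, Anxa2 and Anxa5 there with library size only (0.16, 0.15 and 0.014), and S100a10 in NASH-CH against control with quality weights (-0.042). Anxa3 in NASH-CH against NASH was 0.027 with edgeR, 0.026 with DESeq2, 0.034 with library size only, 0.00062 with at least 10 counts in every rat, 0.039 with quality weights and 0.012 with NASH-CH counts thinned to the control median. Leaving out a rat gave a range of -0.12 to 0.0015 for Anxa1, -0.15 to 0.015 for Anxa2, -0.028 to 0.24 for S100a4 and -0.063 to 0.17 for S100a6 in NASH against control, -0.050 to 0.36 for S100a10 in NASH-CH against control and -0.094 to 0.11 for Anxa3 in NASH-CH against NASH.

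The labels number rats 1 to 6 in each group. Same-numbered rats had correlations of -0.119 to 0.171, 0.0272 to 0.124 and -0.0744 to 0.0804 in the 3 comparisons, and 2 of 6 matched best with their own number in each. These values did not show a pairing by number, which so few rats cannot exclude, and the block is a hint only.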
